A study of Mus musculus with 10 samples.

Results

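Described here are 5 genes in the cerebellum of Bmal1 knockout mice: Slc5a8, Slc16a1, Slc16a7, Slc16a3 and Bsg. They are 5 of the 22046 genes of the authors' table, and they were taken by gene symbol. The set was put together because Slc5a8 stood higher in knockout than in wild-type libraries, so it was selected on its measured RPKM and the values of Slc5a8 below are a description, with no test, and the tests concern the other 4 genes. Monocarboxylates are the small acids lactate, pyruvate and the ketone bodies, which cells exchange as fuel. SLC16A1 (MCT1), SLC16A7 (MCT2) and SLC16A3 (MCT4) carry them across the cell membrane together with a proton, while SLC5A8 (SMCT1) couples their uptake to sodium. In brain MCT1 is known from endothelium and glia, MCT2 from neurons and MCT4 from astrocytes. Bsg encodes basigin, the membrane glycoprotein that brings MCT1 and MCT4 to the cell surface.

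The knockout mice were Bmal1-/- in every cell of the body, and the controls were Bmal1+/+ littermates from the same heterozygous crosses on a C57BL/6 background. Bmal1, with the gene symbol Arntl, encodes a core transcription factor of the circadian clock, which binds E-box motifs. Lysate of frozen cerebellum was split into total RNA and ribosome footprints, the stretches of mRNA of 28 to 34 nt that ribosomes protect from RNase I, so both libraries of an animal come from 1 lysate. Values were analysed for 8 of the 10 libraries of the series: both kinds of library from animals 1 and 3 of the knockout (KO1 and KO3) and animals 2 and 3 of the wild type (WT2 and WT3). The other 2 libraries, total RNA of knockout animal 2 and of wild-type animal 1, were not analysed here. Age, sex and the hour of dissection are not stated in the labels.

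Values are the authors' RPKM, in which the reads of a gene are divided by a length and by the depth of the library. The length used is not given in the sources used here, so RPKM is compared only within a gene. Translational efficiency is the authors' ratio of footprint RPKM to total RNA RPKM in the same animal, in which the length cancels. Total RNA libraries held 38.9 M and 43.2 M reads in KO and 25.6 M and 27.8 M in WT, so that both KO libraries were the deeper ones, and footprint libraries held 27.7 M to 41.0 M. The targeted gene Arntl had 267.4 and 272.2 RPKM of total RNA in KO libraries, against 178.8 and 179.4 in WT libraries. Its translational efficiency was 0.463 and 0.393 in KO, against 1.44 and 1.64 in WT. Since the deleted stretch of Arntl is not named in the labels, its RNA level is no check of genotype.

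Libraries of WT3 stood apart in markers of choroid plexus, the epithelium that makes cerebrospinal fluid and lies against the cerebellum. The 12 markers summed to 1904 and 2248 RPM (reads per 1 M reads of the library) in knockout total RNA, to 894.9 in WT2 and to 70.0 in WT3. In footprints the sums were 5394 and 5650 in KO, 2343 in WT2 and 114.6 in WT3. No choroid plexus marker was at 0 in any library. The results below are therefore given with and without WT3 where it matters.

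Slc5a8 (ENSMUSG00000020062; mm10 chromosome 10, 88885992 to 88929515, plus strand) was the member that separated the genotypes most. Its total RNA was at 11.8 RPKM in KO1 and 10.7 in KO3, against 0.409 in WT2 and 0.479 in WT3. Both knockout libraries were far above both wild-type libraries, which held next to no reads of the gene. The knockout values rest on 171 reads (95% Poisson interval 146.3 to 198.6) and 172 reads (147.3 to 199.7), and the wild-type values on 4 reads (1.09 to 10.2) and 5 reads (1.62 to 11.7). These intervals cover counting error only. The means were 11.2 ± 0.795 RPKM in KO and 0.444 ± 0.0493 in WT (SD, n = 2 each), a ratio of 25.3, with single-library ratios between 22.3 and 28.8.

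Footprints of Slc5a8 showed the same separation. They were at 22.4 and 23.0 RPKM in KO, on 317 and 242 reads, against 0.304 and 1.15 RPKM in WT, on 4 and 11 reads. WT3 had more footprints than WT2, and both were far below the knockout. The means were 22.7 ± 0.486 RPKM in KO and 0.728 ± 0.599 in WT, a ratio of 31.2, with single-library ratios from 19.4 to 75.7. On the log2(RPKM + 1) scale used for the tests, which understates changes of low genes, the difference was 3.08 in total RNA and 3.82 in footprints. Slc5a8 passed the filter on low values, a mean of at least 1 RPKM, only through its knockout libraries.

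Choroid plexus markers were higher in the same knockout libraries as Slc5a8. In total RNA the 2 KO libraries had 28.1 and 25.5 times the Slc5a8 RPM of WT2, and 2.13 and 2.51 times its summed choroid plexus markers. Against WT3 the ratios were 24.4 and 22.1 for Slc5a8 and 27.2 and 32.1 for the markers. In footprints the ratios to WT2 were 73.6 and 76.5 for Slc5a8 and 2.30 and 2.41 for the markers. Against WT3 they were 19.5 and 20.2 for Slc5a8 and 47.1 and 49.3 for the markers. In both kinds of library Slc5a8 thus had the larger ratios against WT2 and the markers had the larger ratios against WT3. Without WT3 the log2 difference of Slc5a8 was 3.11 in total RNA and 4.18 in footprints. The part of choroid plexus tissue in the Slc5a8 difference was not tested, and in bulk tissue more cells of a type and more RNA per cell cannot be told apart.

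**Figure D1:**
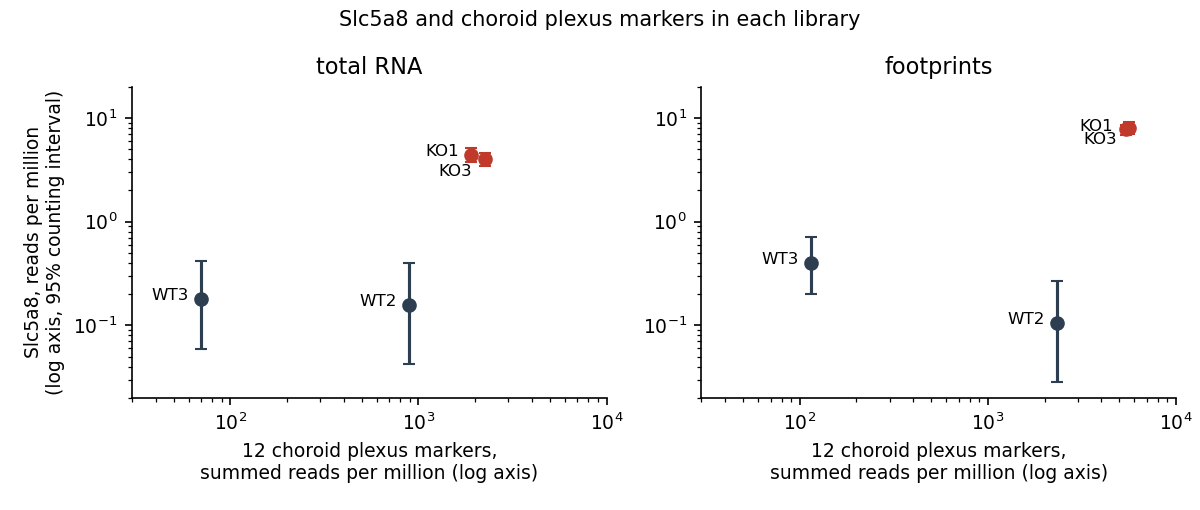
Slc5a8 RPM (vertical, log axis, bars are 95% counting intervals) against the summed RPM of 12 choroid plexus markers (horizontal, log axis) in each total RNA and footprint library. Knockout animals (KO1, KO3) are high on both axes, with Slc5a8 total RNA at 4.39 and 3.98 RPM, and WT2 and WT3 lie at 0.156 and 0.180 with marker sums of 894.9 and 70.0.

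Of the 12 choroid plexus markers, 10 passed the filter in total RNA. Of these 10, 2 rose, against 2.48% of all 12690 genes tested (limma, Benjamini-Hochberg adjusted over those genes). These were Prlr, the prolactin receptor gene (3.18, adjusted p = 0.0397), and Sostdc1, a gene of a secreted inhibitor of BMP and Wnt signalling (1.61, adjusted p = 0.0207). Neither passed without KO1 (adjusted p = 0.117 and 0.0742) or KO3 (0.0897 and 0.0719), and both did without WT3 (2.22, adjusted p = 0.00450, and 1.30, adjusted p = 0.0259). The median log2 difference of the tested markers was 2.13, against -0.02 over all genes tested. Limma-voom on recovered reads called 11 of the 12 markers higher, against 818 of 13563 over all genes. In footprints all 12 markers were tested and limma called 0, with adjusted p = 0.151 for Prlr and 0.183 for Sostdc1. Limma-voom called 8 higher in footprints, against 122 of 13547 over all genes. The marker Otx2 differed little, by 0.17 in total RNA and -0.01 in footprints. Total RNA of Ttr, which encodes transthyretin, reached 11753 and 13916 RPKM in KO, 5390 in WT2 and 208.4 in WT3. Slc16a8 (MCT3), a lactate transporter known from retinal pigment epithelium and choroid plexus, had 0.595 and 0.406 RPKM of total RNA in KO, 0.140 in WT2 and was listed at 0 in WT3, below the filter.

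Slc5a8 and Slc16a1 promoters are shown because BMAL1 acts through short promoter motifs, and of the members with a promoter in the RefSeq table (GRCm38.p6), Slc5a8, Slc16a1 and Slc16a3, only that of Slc16a1 holds the E-box. Slc16a7 and Bsg are not in that table. Each window runs from 250 bases before to 50 bases after the start of the gene in RefSeq, chr10:88885742-88886041 for Slc5a8 and chr3:104638414-104638713 for Slc16a1, both on the plus strand, with a match in capitals. Positions of genes elsewhere are from GENCODE, whose start differs by a few bases for Slc16a1 and lies before the whole window for Slc16a3.
Slc5a8: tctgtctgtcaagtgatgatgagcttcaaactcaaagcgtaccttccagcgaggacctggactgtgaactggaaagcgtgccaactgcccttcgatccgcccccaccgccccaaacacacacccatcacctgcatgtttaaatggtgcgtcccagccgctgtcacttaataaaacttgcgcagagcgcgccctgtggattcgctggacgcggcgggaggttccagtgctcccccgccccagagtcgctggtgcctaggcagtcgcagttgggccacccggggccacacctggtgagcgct
Slc16a1: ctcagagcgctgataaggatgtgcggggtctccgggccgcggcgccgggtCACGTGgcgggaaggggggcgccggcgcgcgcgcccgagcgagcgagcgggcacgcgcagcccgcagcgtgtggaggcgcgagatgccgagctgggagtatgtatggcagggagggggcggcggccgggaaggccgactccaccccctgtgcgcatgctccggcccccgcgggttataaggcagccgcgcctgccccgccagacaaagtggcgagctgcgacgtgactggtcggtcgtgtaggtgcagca
The Slc16a1 window has CACGTG once, 200 bases before the start. In the Slc5a8 and Slc16a3 windows none of the 4 sequences searched on both strands was found: the E-box CACGTG, the E-prime box CACGTT, the RORE core AGGTCA and the D-box TTATGTAA. These letters occur in 7.15%, 4.68%, 16.3% and 0.938% of 32851 promoter windows of the same length, in that order. A match or its absence in this window says nothing about binding.

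Among the proton-coupled members, Slc16a1 (ENSMUSG00000032902; chromosome 3, 104638668 to 104658462, plus strand), the gene of MCT1, had overlapping total RNA levels. They were 50.3 and 56.6 RPKM in KO and 48.7 and 52.8 in WT. The means of 53.5 ± 4.44 RPKM in KO and 50.7 ± 2.92 in WT (SD, n = 2 each) differed by 0.07 on the log2(RPKM + 1) scale (SE 0.10, 95% interval -0.18 to 0.32, limma adjusted p = 0.723). Its footprints did not overlap, with 86.9 and 81.6 RPKM in KO and 72.6 and 66.9 in WT. The footprint means, 84.2 ± 3.77 RPKM in KO and 69.7 ± 3.999 in WT, differed by 0.27 (SE 0.13, 95% interval -0.05 to 0.59) and did not pass the threshold (limma adjusted p = 0.557). Both knockout animals were higher than both wild-type animals in 17.1% of the 12447 genes tested in footprints.

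Slc16a7 (ENSMUSG00000020102; chromosome 10, 125219270 to 125389465, minus strand), the gene of the neuronal transporter MCT2, had less total RNA in both knockout animals than in both wild-type animals. The levels were 65.5 and 58.8 RPKM in KO, against 76.5 and 66.7 in WT, and KO1 and WT3 lay close together. The difference between means of 62.2 ± 4.77 RPKM in KO and 71.6 ± 6.92 in WT was -0.20 (SE 0.11, 95% interval -0.47 to 0.07) and was not called (limma adjusted p = 0.344). In total RNA 30.3% of all tested genes were lower in both knockout libraries than in both wild-type libraries. Footprints of Slc16a7 overlapped, at 23.9 and 18.3 RPKM in KO and 21.3 and 24.6 in WT (difference -0.12, SE 0.19, 95% interval -0.59 to 0.34, limma adjusted p = 0.908). Without KO3 the footprint difference was 0.062, so its direction rests on that animal.

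Slc16a3 (ENSMUSG00000025161; chromosome 11, 120948480 to 120960868, plus strand), the gene of MCT4, was low in all libraries and below the filter. Total RNA was at 0.230 and 0.311 RPKM in KO, on 20 and 30 reads, and at 0.513 and 0.448 RPKM in WT, on 30 and 28 reads. Both knockout values were the lower ones, as in 30.3% of the genes tested in total RNA, with a ratio of means of 0.563. In limma-voom on recovered reads the log2 difference was -0.85 (SE 0.47, 95% interval -1.82 to 0.13, adjusted p = 0.263). Footprints scattered within each genotype, with 1 read (95% Poisson interval 0.0253 to 5.57) in KO1 and 24 in KO3, against 16 in WT2 and 39 in WT3. The corresponding limma-voom difference was -2.18 (SE 1.38, adjusted p = 0.668), so no difference between genotypes was detectable at this depth.

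Bsg (ENSMUSG00000023175; chromosome 10, 79704491 to 79711969, plus strand), the gene of the chaperone of MCT1 and MCT4, lay slightly higher in both knockout animals in both kinds of library. Total RNA was at 103.0 and 102.4 RPKM in KO and at 96.9 and 95.6 in WT, and footprints at 196.7 and 214.6 in KO and 185.0 and 186.2 in WT. The groups did not overlap, and the differences were small: 0.09 in total RNA (SE 0.08, 95% interval -0.10 to 0.29, limma adjusted p = 0.550) and 0.15 in footprints (SE 0.12, 95% interval -0.14 to 0.44, limma adjusted p = 0.801). In total RNA 24.7% of all tested genes were higher in both knockout libraries, and in footprints 17.1%. Slc16a1 and Bsg are both expressed in endothelium. Of 9 endothelial markers tested in total RNA, Cldn5, a tight junction gene, rose (0.84, limma adjusted p = 0.0245), against 2.48% called higher over all genes tested. This call was lost without KO1 (0.121) or KO3 (0.0706). The 10 endothelial markers summed to 208.0 and 180.0 RPM in knockout total RNA and to 191.2 and 139.7 in wild-type total RNA, and their part in the values of Slc16a1 and Bsg was not tested.

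**Figure D2:**
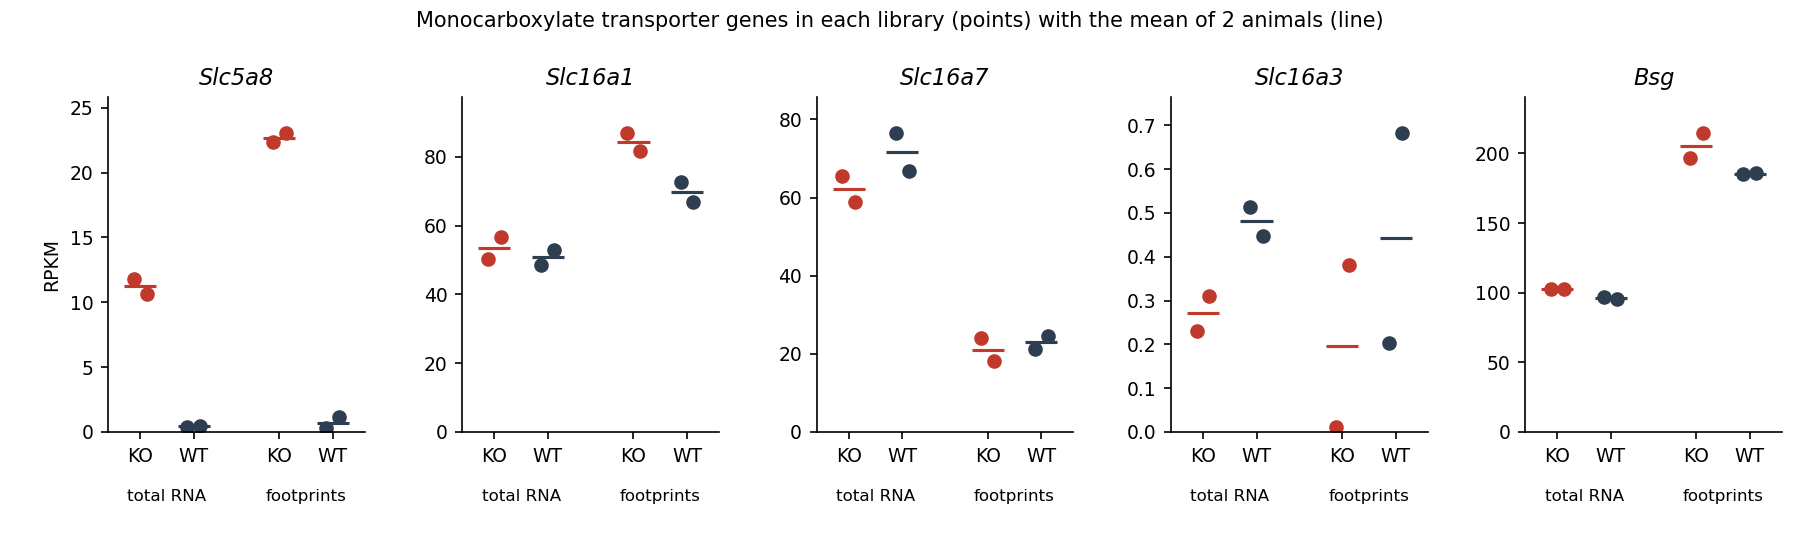
RPKM of the 5 genes in each library (points) with the mean of 2 animals (line), knockout (KO) left of wild type (WT), total RNA left of footprints; each panel has its own linear axis from 0. Slc5a8 is at 10.7 RPKM or more in knockout total RNA and at 0.479 or less in wild-type total RNA, while the other genes differ little between genotypes within a kind of library or, for Slc16a3, lie at 0.682 RPKM or less.

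Of the 5 genes, 4 passed the filter in total RNA, footprints and efficiency, and of the 3 with a test none was called in any of the 3 comparisons by limma. None was called by limma-voom either. Limma gave no unadjusted p under 0.05 for them, while limma-voom gave 1, for footprints of Slc16a1 (log2 difference 0.28, 95% interval 0.018 to 0.54, unadjusted p = 0.0381, limma-voom adjusted p = 0.443). In total RNA 4.09% of the 12690 genes tested were called, 2.48% higher and 1.61% lower, in footprints 0.233% of 12447 and in efficiency 0.0165% of 12089. With 2 animals per genotype the intervals above still hold changes of the RNA of Slc16a1 between -0.18 and 0.32 log2 units and of Bsg between -0.10 and 0.29. A p that misses the threshold therefore does not show equal levels.

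**Figure D3:**
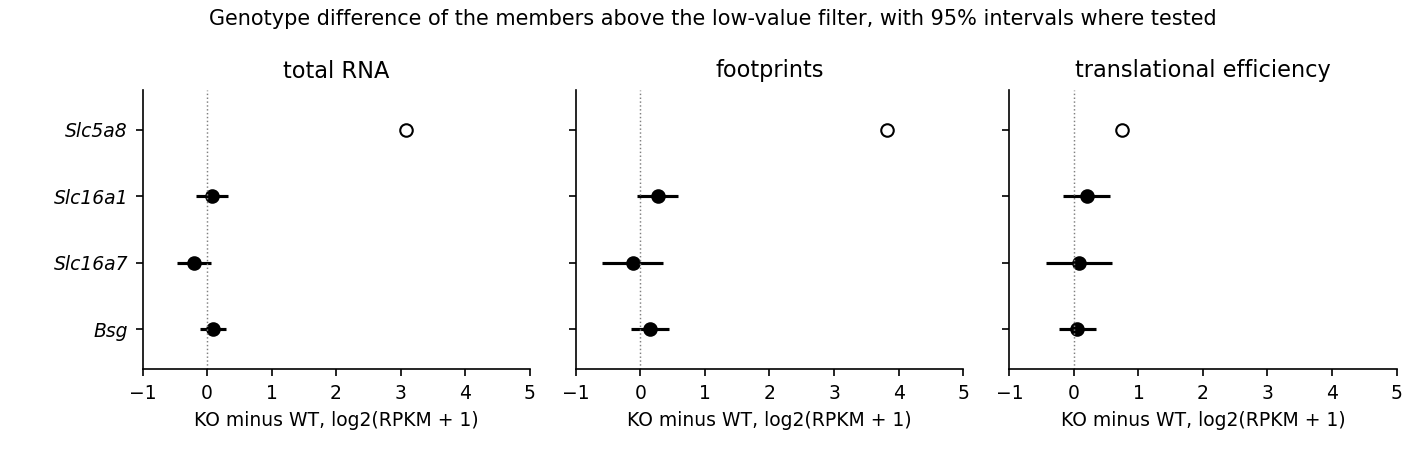
Difference between knockout and wild type (KO minus WT) on the log2(RPKM + 1) scale for total RNA, footprints and translational efficiency, the last being the footprint difference minus the total RNA difference. Filled points with 95% intervals (lines) are tested genes, all of whose intervals include 0, and the open point is Slc5a8, at 3.08, 3.82 and 0.74, shown with no interval because it was chosen for this contrast.

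Slc16a7, Slc16a1 and Bsg differed from each other in the ratio of footprint to total RNA RPKM, in this rising order in all 4 animals. Slc5a8 and Slc16a3 kept no fixed place. Slc16a3, on few reads, ran from 0.0512 in KO1 to 1.52 in WT3. Since the counting rule is not given, a difference in this ratio between genes is not shown to be one of ribosome density. Slc16a7 had the lowest efficiency of the 3 well-covered Slc16 and Bsg genes, at 0.365 and 0.311 in KO animals and 0.278 and 0.369 in WT animals. Only 6.21% to 12.3% of genes with at least 1 RPKM in both libraries of the animal lay below it, and the median gene was at 0.943 to 0.965. Slc16a1 was at 1.73 and 1.44 in KO and 1.49 and 1.27 in WT, above the median gene. Bsg was at 1.91 and 2.10 in KO and 1.91 and 1.95 in WT, with 84.3% to 89.1% of genes below it. Within an animal the efficiency of Slc16a1 was 4.73 and 4.64 times that of Slc16a7 in KO and 5.36 and 3.43 times in WT. All 4 animals showed this order, and an exact two-sided permutation of signs over 4 animals cannot give a p below 0.125.

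Genotype did not separate the efficiency of the tested members beyond the spread between animals. The interaction of genotype and library kind was 0.20 for Slc16a1 (SE 0.15), 0.08 for Slc16a7 (SE 0.22) and 0.05 for Bsg (SE 0.12), each with a limma adjusted p of 0.997. For Slc5a8 the efficiency was 1.90 and 2.16 in KO and 0.744 and 2.40 in WT. The wild-type values span the knockout values and rest on the 4 to 11 reads given above. On the log2(RPKM + 1) scale the difference in efficiency was 0.74 with all animals, 0.42 without WT2 and 1.07 without WT3. Without WT2 the authors' ratio goes the other way, higher in WT3 (2.40) than in both knockout animals. Adding 1 RPKM weighs heavily on wild-type values this low, so the direction is not settled.

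**Figure D4:**
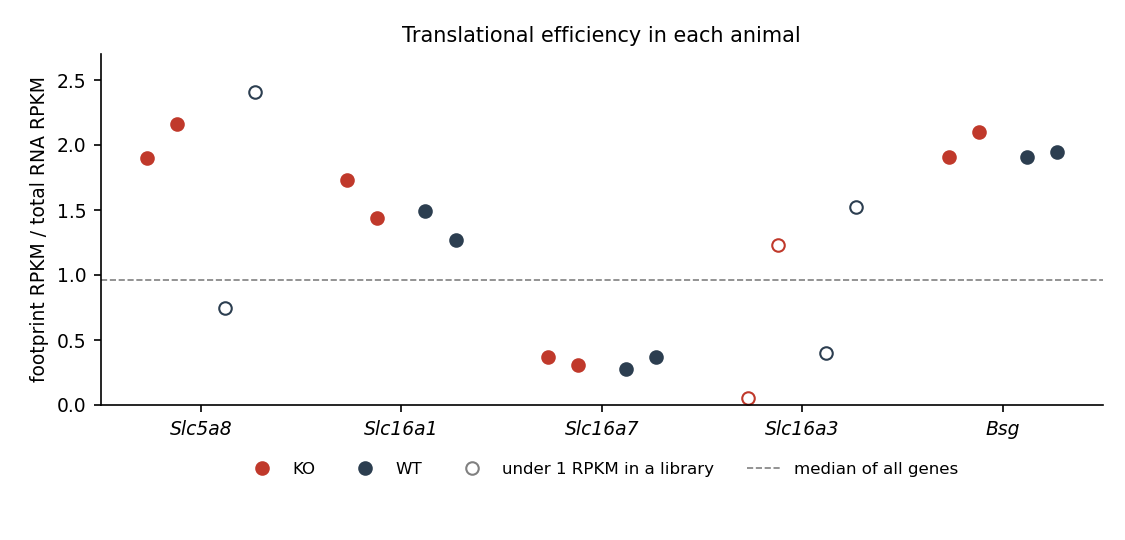
Translational efficiency (footprint RPKM over total RNA RPKM, linear axis) of each gene in each animal, knockout (KO) left of wild type (WT), with the median of all genes as a dashed line and open symbols where a library of the animal was under 1 RPKM. Slc16a7 lies below the median in all 4 animals, at 0.278 to 0.369, and Slc16a1 and Bsg lie above it.

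The wider family was described by a list of 18 genes of monocarboxylate transporters and their partner proteins besides Slc5a8, the other members included. Of these, 14 passed the filter in total RNA, 2 rose and 0 fell, against 2.48% called higher and 1.61% lower over all genes tested. Their median log2 difference was 0.08 against -0.02 over all genes. Slc16a6 (MCT7), a transporter tied to ketone body export from liver in zebrafish, rose (0.68, SE 0.10, limma adjusted p = 0.0253), with 32.1 and 29.4 RPKM in KO and 19.6 and 18.2 in WT. Slc16a9 (MCT9), known as a carnitine transporter, rose as well (0.69, SE 0.11, limma adjusted p = 0.0292), with 31.7 and 36.9 RPKM in KO and 21.1 and 20.5 in WT. In both genes both knockout libraries were above both wild-type libraries, which held for 24.7% of the 12690 genes tested. The call of Slc16a6 was kept without WT2 (adjusted p = 0.0453) and lost without KO1 (0.189), KO3 (0.0821) or WT3 (0.0504). That of Slc16a9 was lost without each of the 4 libraries in turn (adjusted p 0.0582 to 0.130), and with all 8 libraries in 1 fit neither was called (0.0655 and 0.293).

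Footprints of these 2 genes had differences of like size and were not called: 0.61 for Slc16a6 (limma adjusted p = 0.307), with 21.0 and 17.8 RPKM in KO and 11.3 and 13.4 in WT, and 0.75 for Slc16a9 (adjusted p = 0.480), with 26.3 and 17.4 in KO and 9.59 and 15.7 in WT. In footprints 13 genes of the list were tested and 0 were called, with 0 by limma-voom. An unadjusted limma p under 0.05 was seen for 2 of them, against 1294 of all 12447 genes tested. The same 13 gave 0 calls for efficiency by limma and by limma-voom, with 0 at an unadjusted p under 0.05. In total RNA Slc16a14 differed by 0.43 (limma adjusted p = 0.120) and was called higher by limma-voom only. The partner genes Emb, which encodes the embigin that accompanies MCT2, and Nptn, a relative of basigin, had differences of -0.04 (adjusted p = 0.878) and -0.06 (0.659). Slc16a3, Slc16a5, Slc16a8 and Slc5a12, the gene of the second sodium-coupled transporter, were below the filter.

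**Figure D5:**
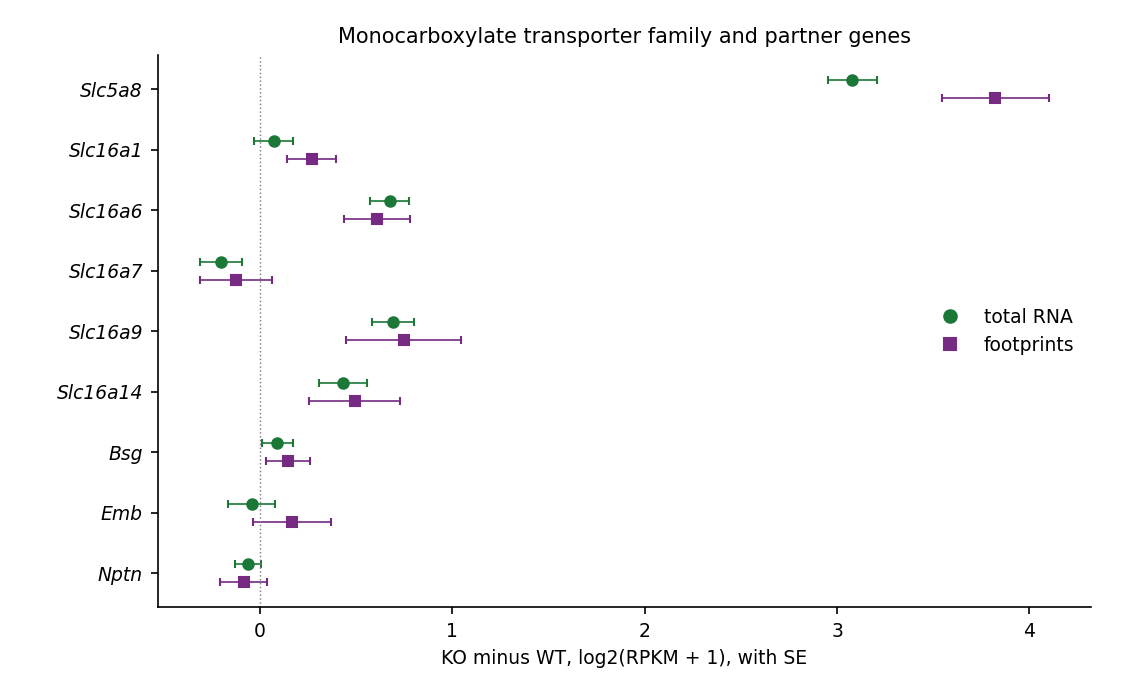
Difference between knockout and wild type (KO minus WT, log2(RPKM + 1), bars are SE) of 9 genes of the monocarboxylate transporter family and its partners that passed the filter, in total RNA (circles) and footprints (squares). Slc5a8 lies at 3.08 and 3.82, Slc16a6 at 0.68 and 0.61, Slc16a9 at 0.69 and 0.75, and Slc16a7 at -0.20 and -0.12. The bars of Slc5a8 are no test, because it was chosen for this contrast.

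Among genes that make or use the transported acids few were called. Of 18 tested genes of lactate and pyruvate metabolism, 1 rose and 1 fell in total RNA, with a median of -0.12. Over all genes tested in total RNA, limma called 2.48% higher and 1.61% lower. Pdk2, a kinase that inhibits pyruvate dehydrogenase, had 72.4 and 63.6 RPKM in KO and 47.9 and 44.9 in WT (0.54, limma adjusted p = 0.0471). Pdp1, a phosphatase that re-activates the same enzyme, had 29.8 and 30.1 RPKM in KO and 42.0 and 44.8 in WT (-0.52, limma adjusted p = 0.0397). Each lost its call when any 1 of the 4 libraries was left out, with adjusted p from 0.0835 to 0.291 for Pdk2 and from 0.0632 to 0.245 for Pdp1. In footprints neither was called (0.14 and -0.32). By limma-voom Mpc1, a gene of the mitochondrial pyruvate carrier, was called lower in total RNA as well (-0.84, adjusted p = 0.00318), with 24.3 and 21.3 RPKM in KO and 49.1 and 33.0 in WT (limma adjusted p = 0.0828). The lactate dehydrogenase genes Ldha (0.09, adjusted p = 0.770) and Ldhb (-0.14, adjusted p = 0.435) were not called.

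Ketone body genes gave 0 calls among 5 tested in total RNA by limma, with 2 at an unadjusted p under 0.05 and 1 call by limma-voom. Over all genes in total RNA, 2810 of 12690 had such a p by limma, and limma-voom called 1677 of 13563. Oxct1, the gene of the enzyme that opens ketone body use in brain, had a difference of -0.19 (limma adjusted p = 0.202). Limma called 1.61% of all genes tested in total RNA lower. Of 16 genes of glucose uptake and glycolysis, Hk2, a hexokinase gene, fell in total RNA (-1.12, SE 0.13, limma adjusted p = 0.0127). It had 3.04 and 3.48 RPKM in KO and 7.63 and 8.96 in WT. The call was lost without KO1 (adjusted p = 0.0741). Its footprints differed by -1.01 and were not called by limma with 2 animals against 2 (adjusted p = 0.162), but were by limma with all 8 libraries in 1 fit (0.0201) and by limma-voom (0.0142). Hk1, the other hexokinase gene of the list, was called higher by limma-voom only (0.38, adjusted p = 0.00185), with 107.8 and 112.0 RPKM of total RNA in KO and 84.5 and 81.6 in WT (limma adjusted p = 0.0587). Of 11 other Slc5 genes, 5 were tested in total RNA and 0 were called by limma, with 2 at an unadjusted p under 0.05. Limma-voom called Slc5a11 higher (1.41, adjusted p = 0.0470), a gene below the limma filter with 0.782 and 1.41 RPKM in KO and 0.444 and 0.336 in WT. It called Slc5a7, the gene of a choline transporter, lower (-1.90, adjusted p = 0.0442), with 5.32 and 16.8 RPKM in KO, 86.5 in WT2 and 15.6 in WT3. KO3 and WT3 thus lay close together for Slc5a7, and WT2 stood apart.

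Around Slc5a8 on chromosome 10 no other tested gene was called higher. Of the 3 genes of the table on each side, Spic, Arl1, Utp20, Ano4, Gas2l3 and Nr1h4, 4 were tested in total RNA. Ano4, whose nearer end lies 19.5 kb beyond Slc5a8, encodes a membrane protein of the anoctamin family. It had 5.78 and 5.64 RPKM in KO and 8.91 and 7.54 in WT (-0.45, limma adjusted p = 0.107, and 0.00812 by limma-voom). Utp20, a gene of ribosome assembly 59.2 kb on the other side, had a difference of -0.11 (adjusted p = 0.653), and Arl1 one of -0.19 (0.328). Gas2l3, a gene of a cytoskeletal linker protein, fell (-0.93, SE 0.11, adjusted p = 0.0135), with 29.8 and 26.5 RPKM in KO and 50.9 and 58.0 in WT. Its call was lost without KO3 (0.0621), and its footprints differed by -0.14 (adjusted p = 0.889).

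Genes whose pattern was most like that of Slc5a8 were ranked by Pearson's r of log2(RPKM + 1) over the 8 libraries among 12089 genes. The points are 2 libraries from each of 4 animals and fall into 2 genotypes, so r mostly measures that separation. Slc20a2, a phosphate transporter gene, came first (r = 0.987), with 60.3 and 57.1 RPKM of total RNA in KO and 18.7 and 21.5 in WT. Spon2, a gene of a secreted matrix protein, followed (0.986), and then Mrln, a gene of a small membrane protein of muscle (0.985), Fam160a1 (0.984) and Lrp4, an agrin receptor gene (0.984). Their log2 differences in total RNA were 1.503, 6.53, 1.495, 0.48 and 0.64, in the same order.

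Other marker lists give the cell mixture of the same total RNA libraries. Of 10 granule neuron markers 2 rose and 0 fell, and of 10 astrocyte and Bergmann glia markers 0 rose and 1 fell. Of 10 oligodendrocyte markers 0 rose and 1 fell. Of 5 tested brainstem markers 1 rose and 1 fell, with 4 of the 5 differences below 0 and a median of -0.55. Over all genes tested in total RNA, limma called 2.48% higher and 1.61% lower. Limma-voom called 5 granule neuron markers higher and 0 lower, 1 astrocyte marker higher and 2 lower, 1 oligodendrocyte marker higher and 4 lower, and 1 brainstem marker higher and 1 lower. Over all 13563 genes it tested in total RNA, limma-voom called 818 higher and 859 lower. WT2 stood apart in the brainstem marker Hoxa5, with 1.39 and 1.57 RPKM in KO, 40.6 in WT2 and 0.727 in WT3. Of 7 Purkinje cell markers and 6 tested microglia markers limma called 0, with 1 and 3 at an unadjusted p under 0.05, against 1 and 4 calls by limma-voom. Over all genes tested by limma in total RNA, 2810 of 12690 had such a p. No marker of Purkinje cells or granule neurons, cell types that define the labelled cerebellum, was at 0 in any library. The part of these shifts in the values of the transporters was not tested.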

How the data were processed

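Total RNA and ribosome footprints were sequenced from cerebellum, and per the labels' protocols both came from 1 lysate per animal, with ribosomal RNA depleted and a small RNA library kit. Reads were processed with tools that include Bowtie, STAR and Cufflinks on mm10, per the submitters' processing notes, which give no version or role, and the counting rule is not given in the sources used here. The authors deposited RPKM per library, per the file headers, and a translational efficiency ratio, which equalled footprint over total RNA RPKM within 2% in 99.998% of 57412 values. They also deposited a mean read count per gene, from which, taken as a geometric mean, whole reads were recovered for 13880 of 22046 genes: 99.93% of 4392 low values fell within 0.1 of a whole number, against 19.4% with an arithmetic mean. Depth is the sum of recovered reads.

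Differences were tested on log2(RPKM + 1) with limma (version 3.58.1, R 4.3.3), letting the variance follow the mean level, over genes with a mean of at least 1 RPKM, at a Benjamini-Hochberg adjusted p of 0.05 ("called"). Total RNA and footprints were each tested 2 animals against 2, and efficiency as the interaction over 8 libraries. The scripts were tested on simulated data. With 2 animals a group, limma draws the variance of each gene toward a trend over all genes. Its p-values therefore do not measure the spread of a gene between these animals alone. The main efficiency fit treated the 2 libraries of an animal as independent. Limma-voom on recovered reads, another pseudocount, no filter, 1 fit over 8 libraries, an animal block and leaving out each animal were the alternatives. The genotypes share only replicate number 3, so numbers pair nothing between them. Within an animal, deviations of total RNA and footprints from their group means correlated at -0.004 for knockout and 0.26 for wild-type animals across 12089 genes, and the shared lysate is the reason for the block.

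The members and gene lists were chosen with earlier results of these data known, and lists are described by counts and medians without a test. Named genes are the members, called genes of the pathway lists, marker genes, the 5 genes most correlated with Slc5a8 and its 3 neighbours on each side. Genes named without a call by limma (Slc16a14, Emb, Nptn, Ldha, Ldhb, Mpc1, Hk1, Oxct1, Slc5a7, and Slc5a11 and Slc16a8, which were below the filter in total RNA) were chosen after their values were seen. Positions are from GENCODE M21 on mm10, in which 21951 of the 22046 gene IDs were found. Values of some list genes are not reported here.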

Additional observations from a re-analysis of the deposited data

How the results depend on the processing

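The number of genes called moved with the settings: in total RNA, 519 against 26 with no filter, 1677 by limma-voom, 217 with all 8 libraries in 1 fit and 117 to 563 leaving out 1 animal. In footprints it was 29 against 17 with a pseudocount of 0.1 RPKM, 1 with no filter, 210 by limma-voom, 315 in 1 fit and 1 to 6 leaving out 1 animal, and for efficiency 2 against 5 with that pseudocount, 0 with no filter, 1 by limma-voom and 0 without any 1 animal. With the replicate block for the animal, 1 gene was called for efficiency, the member values stayed at 0.74, 0.20, 0.08 and 0.05 for Slc5a8, Slc16a1, Slc16a7 and Bsg, and no call of a member changed. No paired analysis was possible between genotypes within total RNA or footprints because the animals compared share fewer than 2 replicate numbers. The difference of Slc5a8 was 4.38 in total RNA and 5.00 in footprints with a pseudocount of 0.1, and 4.49 and 5.24 by limma-voom; these settings add less to low values than 1 RPKM. On the log2(RPKM + 1) scale its efficiency difference ran from 0.42 to 1.07 leaving out 1 animal. Without WT2 the authors' ratio goes the other way, since it was higher in WT3 than in both knockout animals. Leaving out 1 animal turned the direction of small differences: Slc16a1 total RNA (-0.011 to 0.16), Slc16a7 footprints (-0.31 to 0.062), Slc16a7 efficiency (-0.12 to 0.28) and Bsg efficiency (-0.013 to 0.12), and outside the members Utp20 total RNA (-0.24 to 0.032), Gas2l3 footprints (-0.30 to 0.025) and Pdk2 footprints (-0.011 to 0.29), and the cause was not tested. None of the 72 alternative values of Slc16a1, Slc16a7 and Bsg passed the threshold (lowest adjusted p = 0.189). With no filter the total RNA calls of Slc16a6, Slc16a9, Pdk2, Pdp1, Hk2, Gas2l3, Prlr, Sostdc1 and Cldn5 were lost, in 1 fit over 8 libraries those of Slc16a6, Slc16a9, Pdk2, Pdp1, Prlr and Sostdc1, and with the smaller pseudocount those of Pdk2 (adjusted p = 0.0505) and Sostdc1 (0.0763). Wild-type depth, with 4 to 11 reads of Slc5a8 per library, limits its ratios and its efficiency.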
